A study of Mus musculus with 3 samples.

Results

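The CC chemokine genes examined here are Ccl2, Ccl3, Ccl4, Ccl5, Ccl6, Ccl7, Ccl8, Ccl9, Ccl12 and Ccl22, 10 of the 55536 mouse genes in the tables, chosen by gene symbol. The RNA came from chromatin, where nascent transcripts are enriched, of macrophages grown from bone marrow of C57BL/6J mice. All 3 libraries belong to 1 group: cells given Lipid A, the lipopolysaccharide moiety sensed by the receptor TLR4, at 100 ng/ml for 25 min. The labels call them biological replicates 1, 2 and 3 and give their starting RNA as 1000, 250 and 500 ng; age and sex were not collected, and no separate animals are named. With no unstimulated sample analysed here, a level describes stimulated cells and does not show that a gene was induced.

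CC chemokines are small secreted proteins that guide white blood cells along a gradient by binding G protein-coupled receptors. Macrophages are a known source of them after Toll-like receptor stimulation, and many of the genes lie side by side in the genome. Ccl2, Ccl7 and Ccl12 act on the receptor Ccr2 and draw monocytes, Ccl3, Ccl4 and Ccl5 attract monocytes and T cells, and Ccl6 and Ccl9 act on Ccr1.

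The gene tables held 13525994, 19230763 and 19207049 expected counts in replicates 1, 2 and 3. Of these, 6386, 3314 and 3285 fell on the 10 genes, or 479, 173 and 172 CPM (counts scaled to the total on annotated genes). Their summed level was 1019, 392 and 412 TPM, a unit that corrects for transcript length and sequencing depth. Genes of the ribosomal DNA locus took 8.59%, 27.2% and 23.2% of the counts, so replicate 1 stood apart from the other libraries in this share as well as in RNA amount. Over 13923 genes with at least 1 TPM in each library, the median gene was 0.35 log2 units higher in replicate 1 than in replicate 2 and 0.26 higher than in replicate 3. The macrophage label was checked with 8 marker genes, all with a mean of at least 1 TPM and together at 2570, 1788 and 2146 TPM. Of 7 T and NK cell markers none reached 1 TPM and 5 had no count, and the list summed to 0.570, 0.244 and 0 TPM. Among 6 dendritic cell markers 1 reached 1 TPM, with sums of 4.27, 3.96 and 2.78 TPM. Sums over 4 B cell, 5 neutrophil and 4 stromal markers were at most 0.334, 3.52 and 1.99 TPM in any library. The neutrophil marker Ngp had a mean of 1.87 TPM, from 17, 13 and 11 counts, and no other marker of these 3 lists reached 1 TPM. The stromal marker Col1a1 had 0, 25 and 30 counts and Col1a2 had 0, 17 and 17, so both were without counts in replicate 1 only. The part of these cells in the levels below was not tested, and in bulk RNA fewer cells and less RNA per cell cannot be told apart.

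Levels of the 10 genes ran from under 1 TPM to over 100 TPM. A mean level of 1 TPM or more was reached by 8 of the 10 genes, against 32.9% of all 46615 genes of at least 300 nt and 50.5% of the 21898 protein-coding ones. A mean of at least 10 TPM was reached by 7 of the 10, against 17.6% and 31.4%. These shares depend on the choice of genes, which was made with earlier results known: of 23 CC chemokine genes, the 10 and 13 others, 10 reached 1 TPM. The TPM printed here leave out entries under 300 nt; on the deposited TPM the means of Ccl4, Ccl9, Ccl2 and Ccl12 were 58.5, 43.4, 29.5 and 5.83, and 6 of the 10 genes reached 10. Their median level was 54.3 TPM, while the median gene stood at 0.0148 TPM and the median protein-coding gene at 1.09 TPM. The order by mean level ran from Ccl4 through Ccl9, Ccl3, Ccl2, Ccl6, Ccl7, Ccl12 and Ccl5 to Ccl8 and Ccl22.

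**Figure D1:**
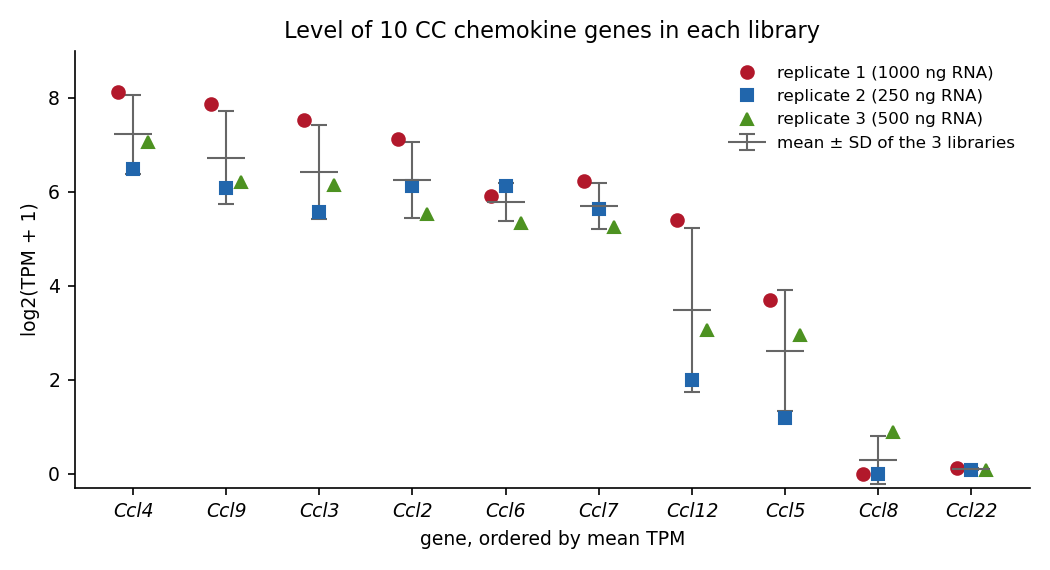
Level of each CC chemokine gene as log2(TPM + 1), with 1 symbol per library and the mean ± SD of the 3 libraries in grey. Replicate 1 is the highest library for 7 of the 8 genes with a mean of at least 1 TPM, the exception being Ccl6, and Ccl8 and Ccl22 stay near 0.

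Ccl4 and Ccl3, also known as macrophage inflammatory proteins, were among the highest. Ccl4 (mm10, chromosome 11, 83662584 to 83664683, plus strand) had 277, 88.1 and 133 TPM in replicates 1, 2 and 3, from 731, 336 and 486 counts. Its mean of 166 ± 99.0 TPM (SD, n = 3) ranked 705 of 46615 genes. Replicate 1 was clearly the highest library, and by these TPM Ccl4 led the 10 genes in each of the 3 libraries. Ccl9 led in each by counts and by TPM of the kallisto-type table, a second deposited quantification. Ccl3 (83647844 to 83649355, minus strand) had 185, 46.8 and 70.2 TPM from 600, 224 and 322 counts, a mean of 100.5 ± 73.8 TPM (SD, n = 3). The libraries stood in the same order as for Ccl4, and the ratio of Ccl4 to Ccl3 was 1.502, 1.88 and 1.89. Ccl5, a chemokine of T cells and late inflammation, was far lower (83525778 to 83530518, minus strand). It had 12.002, 1.29 and 6.72 TPM from 29, 5 and 23 counts, a mean of 6.67 ± 5.36 TPM (SD, n = 3). With so few counts the counting error alone is large, and its range overlapped that of Ccl12.

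The Ccr1 ligands Ccl9 and Ccl6, rodent chemokines made by myeloid cells, differed from each other in how they varied. Ccl9 (83572919 to 83578636, minus strand) held the most counts, 3780, 1639 and 1743, or 59.2%, 49.5% and 53.1% of all counts on the 10 genes. Its level was 233, 66.9 and 73.4 TPM, a mean of 124 ± 94.0 TPM (SD, n = 3). Its share of counts was larger than its place in TPM since its mean length, 2958 nt, was the longest of the 10. Ccl6 (83587882 to 83593087, minus strand) had 58.7, 68.6 and 39.1 TPM from 257, 360 and 205 counts, a mean of 55.5 ± 15.0 TPM (SD, n = 3). Replicate 2 was its highest library, unlike for the other 7 genes with a mean of at least 1 TPM. The ratio of Ccl9 to Ccl6, genes 9.25 kb apart, was 3.96, 0.974 and 1.88 in replicates 1, 2 and 3.

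The Ccr2 ligands Ccl2 and Ccl7 had higher mean levels than Ccl12. Ccl2 (82035571 to 82037453, plus strand) encodes a main attractant of monocytes. Its level was 138, 68.7 and 44.9 TPM from 654, 493 and 302 counts, a mean of 83.8 ± 48.3 TPM (SD, n = 3). Ccl7 (82045712 to 82047525, plus strand) had 73.9, 48.5 and 37.2 TPM from 255, 248 and 182 counts, a mean of 53.2 ± 18.8 TPM (SD, n = 3). In both genes replicate 1 was highest and replicate 3 lowest, and Ccl2 exceeded Ccl7 by 1.87, 1.42 and 1.21 times. Ccl12 (82101845 to 82103400, plus strand), a chemokine of mouse and not of human, had 41.2, 2.97 and 7.31 TPM from 79, 8 and 19 counts. Its mean of 17.2 ± 20.9 TPM (SD, n = 3) rested on replicate 1, and its highest library was 13.9 times its lowest.

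Ccl8 and Ccl22 were at or near the limit of detection. Ccl8 (82115185 to 82116799, plus strand), in mouse an agonist of Ccr8, had 0, 0 and 2 counts. At these depths 0 counts allow a level of up to 1.69 TPM in replicate 1 and 1.22 TPM in replicate 2, from 3 counts and for counting error only. Ccl22 (chromosome 8, 94745590 to 94751699, plus strand), a ligand of Ccr4 made by dendritic cells and some macrophages, had 1 count in each library, or 0.0858, 0.0551 and 0.0580 TPM. Neither can be called absent.

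Neighbours in this order mostly did not differ beyond their spread. Of the 9 neighbouring pairs, the ranges over the 3 libraries overlapped in all but Ccl5 and Ccl8. The order within a pair still held in each library for Ccl4 over Ccl9, Ccl9 over Ccl3, Ccl7 over Ccl12 and Ccl12 over Ccl5. By the kallisto-type table the first of these pairs was reversed in each library. Ccl9 had 841, 337 and 298 TPM there and Ccl4 had 509, 199 and 268, while the others kept their order. Ccl2 over Ccl6 had ratios of 2.35, 1.001 and 1.15, so the pair was level in replicate 2, and the kallisto-type table had Ccl6 higher there, at 65.8 against 64.8 TPM. Ccl3 exceeded Ccl2 in 2 of 3 libraries, with ratios of 1.34, 0.681 and 1.56. Ccl6 exceeded Ccl7 in 2 of 3, with ratios of 0.795, 1.41 and 1.05.

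The 10 genes lie in 2 clusters of chromosome 11 and, for Ccl22, on chromosome 8. The first cluster spans 81.2 kb and holds Ccl2, Ccl7, Ccl12 and Ccl8 in that order, all on the plus strand. The second starts 1409 kb further, spans 139 kb and holds Ccl5, Ccl9, Ccl6, Ccl3 and Ccl4, of which Ccl4 alone is on the plus strand. In the first cluster the mean level of the members was lower with each step from Ccl2 to Ccl8, at 83.8, 53.2, 17.2 and 0.281 TPM. Ccl2 and Ccl7 are 8.26 kb apart, and 54.3 kb separate Ccl7 from Ccl12. In the second cluster Ccl5, at the edge away from Ccl3 and Ccl4, was the lowest member. Genes between or directly beside the members were low: of 10 such genes 7 were at least 300 nt long, and 1 of these reached 1 TPM. That was E230016K23Rik, a noncoding gene that spans Ccl6 on the opposite strand, at 4.56, 2.88 and 1.72 TPM. The eosinophil attractant Ccl11, between Ccl7 and Ccl12, had 5, 0 and 0 counts and a mean of 0.328 TPM. The stepwise order thus holds for the members and not for each CC chemokine gene of the cluster. Rpl9-ps1 had 4, 0 and 2 counts and Heatr9 had 2, 1 and 2. Gm17268, which spans Ccl2 on the opposite strand, had no count. No source used here says if reads were assigned by strand, so reads of Ccl2 and Ccl6 cannot be told apart from antisense reads.

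**Figure D2:**
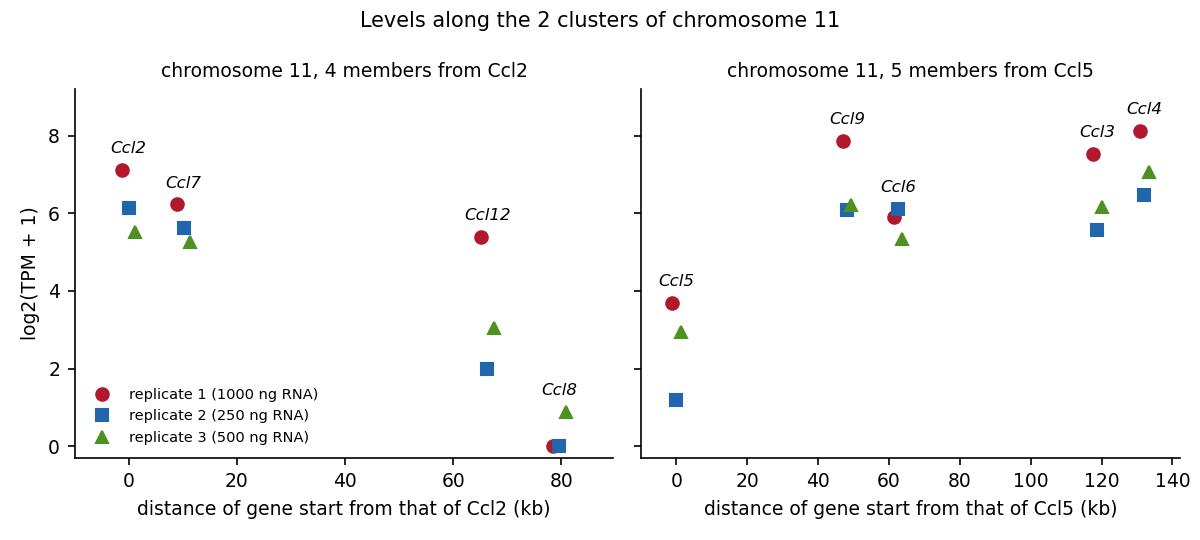
Level as log2(TPM + 1) in each library against the distance in kb of each gene start from that of Ccl2 (left) or Ccl5 (right), for the 2 clusters of chromosome 11. In the left panel levels of the members are lower from Ccl2 to Ccl8 (Ccl11 is not shown), and in the right panel Ccl5 is the lowest of the 5 genes.

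Upstream sequence was taken from the RefSeq promoter table (GRCm38.p6), which matched 6 of the 10 genes, Ccl3, Ccl6, Ccl8, Ccl9, Ccl12 and Ccl22. The 250 bases before the RefSeq gene start are shown, 5′ to 3′ on the gene's strand, for Ccl12 and Ccl8, neighbours 11.8 kb apart with unlike levels, and for the high genes Ccl9 and Ccl3. Capitals mark matches on either strand to TATAAA (the core of a TATA box), to TGANTCA (the AP-1 site) or to the NF-kB consensus, which may overlap each other.
Ccl12 upstream (chr11:82101595-82101844, plus strand): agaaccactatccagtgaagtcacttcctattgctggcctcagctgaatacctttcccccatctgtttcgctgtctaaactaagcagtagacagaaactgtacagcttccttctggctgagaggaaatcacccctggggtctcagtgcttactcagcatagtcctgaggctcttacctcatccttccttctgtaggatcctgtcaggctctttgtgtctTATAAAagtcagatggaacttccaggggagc
Ccl8 upstream (chr11:82114935-82115184, plus strand): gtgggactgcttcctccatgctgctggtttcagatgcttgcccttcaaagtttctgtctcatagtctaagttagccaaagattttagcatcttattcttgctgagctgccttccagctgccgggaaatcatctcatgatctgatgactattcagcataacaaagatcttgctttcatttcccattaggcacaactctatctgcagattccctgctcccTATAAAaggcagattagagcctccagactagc
Ccl9 upstream (chr11:83578637-83578886, minus strand): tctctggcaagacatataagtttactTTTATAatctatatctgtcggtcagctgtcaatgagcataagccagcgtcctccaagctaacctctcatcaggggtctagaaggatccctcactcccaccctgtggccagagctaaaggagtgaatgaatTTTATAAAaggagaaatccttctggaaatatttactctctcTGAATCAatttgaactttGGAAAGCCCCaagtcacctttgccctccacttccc
Ccl3 upstream (chr11:83649379-83649628, minus strand): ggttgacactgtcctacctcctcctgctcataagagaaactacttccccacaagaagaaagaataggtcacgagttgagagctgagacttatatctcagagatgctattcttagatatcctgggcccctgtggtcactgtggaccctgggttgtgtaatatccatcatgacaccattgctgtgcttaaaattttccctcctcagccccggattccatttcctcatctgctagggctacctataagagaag
Ccl12 and Ccl8 each hold 1 TATAAA on the gene's strand, starting 31 and 32 bases before the gene start. Their levels were 17.2 and 0.281 TPM. Ccl9 holds 3 matches to TATAAA over both strands, of which 2 overlap. It also has TGAATCA, which matches TGANTCA on both strands, starting 53 bases before the start and an NF-kB match on the opposite strand from 35 to 26 bases before it. Ccl3 holds no match to these motifs in this window, and neither do Ccl6 and Ccl22. Near matches to TATAAA were not counted, so no match does not mean that a TATA box is lacking. For Ccl3 and Ccl22 the RefSeq start differs from the annotated start used for the levels. The Ccl3 window stops at 83649379, short of its annotated start at 83649355. The Ccl22 window, 94745434 to 94745683, runs past its annotated start at 94745590 into the gene. Over 32851 promoters of this length, TATAAA was found in 12.4%, TGANTCA in 6.75% and the NF-kB consensus in 7.25%. A match is a description of letters and not of binding.

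Transcript types set Ccl2 apart from Ccl3, Ccl4 and Ccl7. The latter, and Ccl8, have 1 annotated transcript, which is protein coding, so no share on another type is possible for them. Ccl2, Ccl5 and Ccl6 also have transcripts annotated as retained introns, and Ccl9, Ccl12 and Ccl22 have processed transcripts, which carry no coding annotation. A share on these types was computed for Ccl2, Ccl6 and Ccl9, which have at least 50 counts in every library. In chromatin RNA, intron reads can come from RNA not yet spliced as well as from a retained-intron transcript. The shares cannot tell these apart, so they are not shares of a finished isoform.

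In the RSEM-type table Ccl2 counts fell mostly on its retained-intron transcript Ccl2-202, with 530, 403 and 234 counts against 124, 89.9 and 68.1 on the coding Ccl2-201. That is 81.0%, 81.8% and 77.5% of the gene's counts, or 80.1 ± 2.30% (SD, n = 3), close to each other in all 3 libraries. The posterior SD of the split was 8.85, 6.98 and 5.87 counts, small beside either transcript. Among 5555 protein-coding genes with a retained-intron transcript and at least 50 counts in every library, the median share was 26.0%, and 94.8% of them lay below Ccl2. The transcript keeps the whole of intron 2 of 2, 325 nt at positions 82036601 to 82036925 of chromosome 11. Both ends of this intron are shown, since reads across them decide between the transcripts, with the first and last intron bases in capitals.
Ccl2 intron 2 start (chr11:82036591-82036620, plus strand): aagctgtagtGTgagttacataccccggcc
Ccl2 intron 2 end (chr11:82036906-82036935, plus strand): tgtcttttctcttcccacAGttttgtcacc
Capitals are the GT and AG that bound most introns. By the kallisto-type table the share on Ccl2-202 was 66.0%, 72.3% and 70.3%, lower but still the larger part.

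Ccl6 had 2 retained-intron transcripts. Ccl6-203 runs from the exon before it into intron 2 of 3 for 284 of its 342 nt, and Ccl6-202 starts in intron 1 and covers 71 nt of it. Together they took 28.3%, 38.0% and 45.7% of the RSEM-type counts, or 37.3 ± 8.71% (SD, n = 3), with replicate 1 lowest and replicate 3 highest. Most of these were on Ccl6-202, at 46.6, 76.5 and 69.15 counts. Their posterior SD was 9.63, 12.36 and 8.92 counts, so the split is uncertain. Of the 5555 genes 62.9% lay below Ccl6. The kallisto-type shares were higher, at 50.1%, 61.5% and 60.7%.
Ccl6 intron 2 start (chr11:83589737-83589766, minus strand): attcatcaagGTaaatgaccagatatgaca
Ccl5 intron 2 start (chr11:83529136-83529165, minus strand): ttgcagtcgtGTgagtctcagccccatggg
These windows show where Ccl6-203 and the retained-intron transcript of Ccl5 leave the exon, again with the first intron bases in capitals. Ccl5-202 runs 428 nt into an intron of 3091 nt, and held 21.3, 5 and 18.5 counts against 7.67, 0 and 4.51 on Ccl5-201. These counts are too few for a share.

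Ccl9 was split very differently by the deposited tables. In the RSEM-type table its processed transcript Ccl9-202, 398 nt long against 3006 nt for Ccl9-201, held 0, 3.73 and 1.81 counts, with a posterior SD of 1.85, 2.14 and 1.54. In the kallisto-type table it held 1678, 1099 and 882 counts, which is 27.0%, 31.04% and 26.6% of the gene. The share was thus 0.110 ± 0.114% in one table and 28.2 ± 2.45% in the other (SD, n = 3), a gap far beyond the spread between libraries. Ccl9-202 lacks the first exon and most of the last exon of the coding transcript and has a first exon of 39 nt inside intron 1, which is shown here.
Ccl9-202 first exon (chr11:83577104-83577142, minus strand): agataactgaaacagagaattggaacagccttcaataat
Which table is nearer to the RNA was not tested. Of the 31-base words in Ccl9 transcripts, 3.75% also occur in transcripts of 1049 other genes on the same strand. For Ccl2, Ccl3, Ccl4, Ccl7, Ccl8, Ccl12 and Ccl22 no such word was shared, and none of the 10 genes shared a word with another of them. The RSEM-type tables gave a posterior SD of 0 for the gene count of each of the 10 in each library, so no read was divided between genes there.

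**Figure D3:**
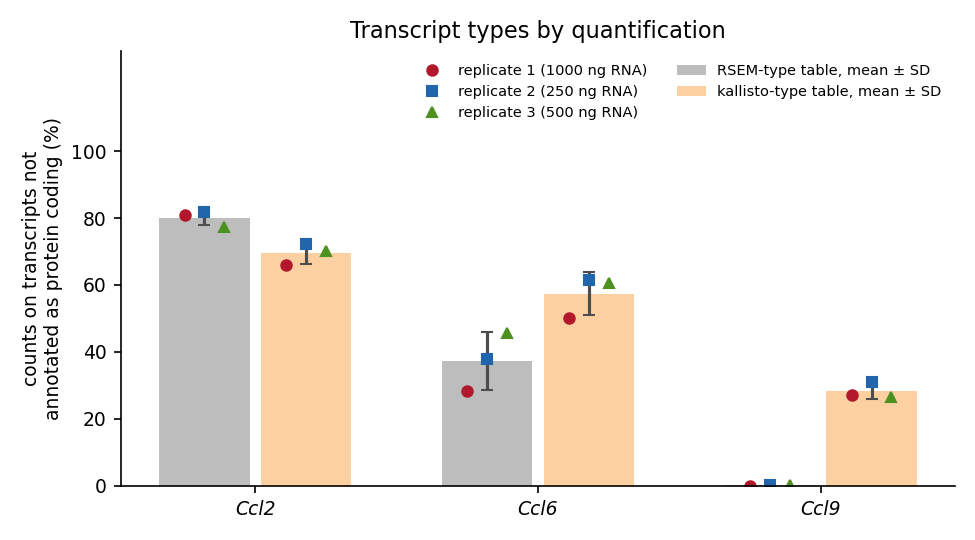
Percent of a gene's counts on transcripts not annotated as protein coding for Ccl2, Ccl6 and Ccl9, in the RSEM-type (grey) and the kallisto-type (orange) table; bars are the mean ± SD of 3 libraries and symbols the libraries. Ccl2 is high in both tables, while Ccl9 is at 0.110% in the first and 28.2% in the second.

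The gene counts of Ccl3 and Ccl4 also depended on the table. The median of 9743 genes with at least 50 counts had 1.52, 1.63 and 1.57 times as many counts in the kallisto-type table as in the RSEM-type one in replicates 1, 2 and 3. For Ccl4 the ratio was 3.68, 4.97 and 4.32, above at least 96.4% of genes in each library. For Ccl3 it was 2.97, 4.52 and 3.75, above at least 93.9%. Ccl2, Ccl6, Ccl7 and Ccl9 had ratios between 1.61 and 2.19. Among the low genes, Ccl22 had 19, 10 and 13 kallisto-type counts where the other table had 1 in each library. The source of these gaps was not tested. By the kallisto-type table Ccl9 led at 492 ± 303 TPM and Ccl4 followed at 325 ± 163 TPM (SD, n = 3).

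**Figure D4:**
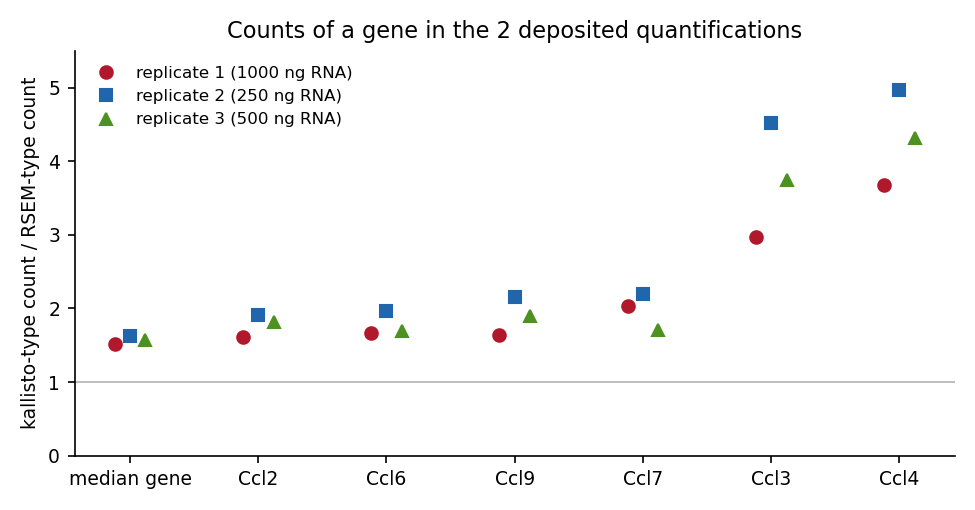
Ratio of kallisto-type to RSEM-type counts for the 6 CC chemokine genes with at least 50 counts in each library and for the median gene, 1 symbol per library. Ccl3 and Ccl4 lie between 2.97 and 4.97, above the median gene at 1.52 to 1.63.

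The only labelled difference between the libraries is the RNA amount, and 4 of the 10 genes were higher with more RNA. The change was fitted as a log2 slope per doubling of RNA with edgeR's quasi-likelihood test over 15077 genes and called at a Benjamini-Hochberg adjusted p under 0.05. Each amount is 1 library with 1 residual degree of freedom, so amount, replicate and the ribosomal share cannot be told apart. The test sets the spread of a gene in part from that of all genes tested. Its p-values thus do not rest on repeats of an amount, and they speak only for these samples. Of the 8 genes that passed the filter on low counts, Ccl12, Ccl3, Ccl9 and Ccl4 were called higher and none lower. Of all genes tested 4.38% were called, 2.98% as higher with more RNA. An unadjusted p under 0.05 was reached by 5 of the 8, and by 3236 of all genes. The median slope of the 8 was 0.71, against -0.01 for all genes tested.

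Ccl12 had 5.31, 0.450 and 1.03 normalised CPM in replicates 1, 2 and 3, a slope of 1.88 ± 0.31 log2 units per doubling (SE; edgeR adjusted p = 0.00156). Ccl3 had 40.4, 12.6 and 17.5 normalised CPM, a slope of 0.85 ± 0.15 (SE; edgeR adjusted p = 0.00357). In the RSEM-type table both followed the amounts in order, which Ccl12 did not in the kallisto-type table. Ccl4, at 49.2, 18.9 and 26.4 normalised CPM, had a slope of 0.69 ± 0.14 (SE; edgeR adjusted p = 0.00911). Ccl9, at 254, 92.1 and 94.7, had a slope of 0.73 ± 0.15 (SE; edgeR adjusted p = 0.0079). For Ccl9 replicates 2 and 3 were nearly equal in spite of 250 and 500 ng, and without replicate 1 its slope was 0.04. Without replicate 1 the slopes of Ccl12, Ccl3 and Ccl4 were 1.10, 0.47 and 0.48, and without replicate 2 the slopes of Ccl3 and Ccl9 were 1.203 and 1.42; 2 libraries leave no test.

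Ccl5, Ccl2, Ccl7 and Ccl6 were not called. Ccl5 had the second steepest slope, 1.24 ± 0.38 (SE; edgeR adjusted p = 0.0687), on few counts. It was 1.94 without replicate 1, 0.62 without replicate 2 and 0.69 on kallisto-type counts. Slopes of Ccl2, Ccl7 and Ccl6 were 0.34 ± 0.18, 0.15 ± 0.18 and -0.12 ± 0.18 (SE), with edgeR adjusted p of 0.305, 0.672 and 0.743. In these 3 genes replicate 3 was lowest although replicate 2 had the least RNA. DESeq2, which called 4.36% of the genes it gave an adjusted p, called Ccl3, Ccl4 and Ccl9 and gave none for Ccl12 and Ccl5. On kallisto-type counts edgeR called 2% of genes and gave Ccl12 and Ccl3 an adjusted p of 0.0382 and 0.0439, while Ccl4 and Ccl9 had 0.0563 and 0.0695. The Ccl12 slope was 1.02 there, and its kallisto-type counts of 228, 73 and 65 were no higher at 500 than at 250 ng.

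**Figure D5:**
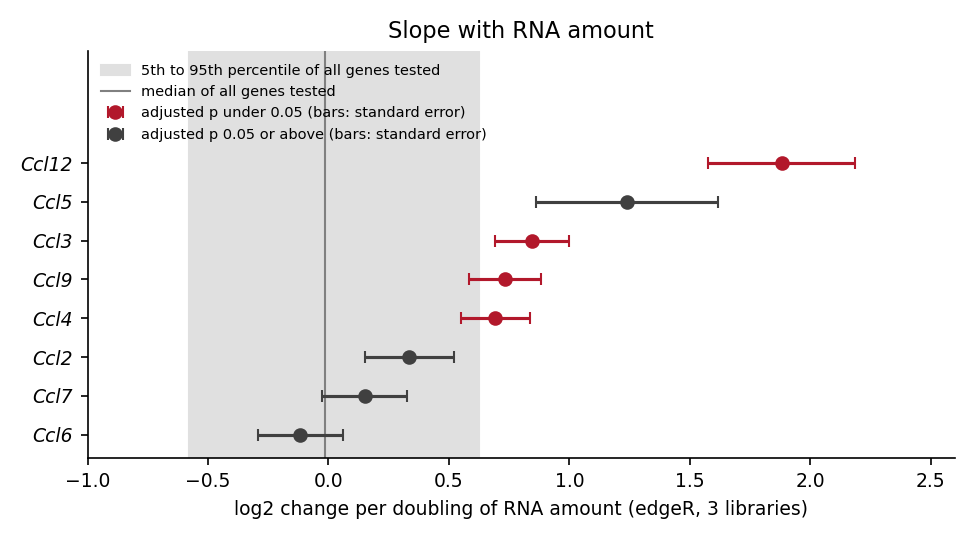
Log2 change per doubling of RNA amount with its standard error for the 8 CC chemokine genes tested, from edgeR on 3 libraries; the grey band holds the middle of all genes tested, from -0.58 (5th percentile) to 0.62 (95th). Ccl12, Ccl3, Ccl9 and Ccl4, in red, have an adjusted p under 0.05.

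The 7 genes with a mean of at least 10 TPM varied more between libraries than most genes of that level. Their SD of log2(TPM + 1) ran from 0.41 for Ccl6 to 1.74 for Ccl12, with a median of 0.83, where the median of 8186 such genes was 0.29. Relative to the median gene, replicate 1 exceeded replicate 2 by 3.44 log2 units for Ccl12, 1.63 for Ccl3, 1.45 for Ccl9 and 1.31 for Ccl4. The same difference was 0.66 for Ccl2 and 0.26 for Ccl7, and Ccl6 was lower in replicate 1 at -0.57. Between replicates 1 and 3 all 7 were higher in replicate 1 relative to the median gene, from 0.32 for Ccl6 to 2.23 for Ccl12.

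The profile of Ccl4 over the libraries was nearest to those of Gm13710, Atf3 and Arl5a among 8185 other genes with a mean of at least 10 TPM. Likeness was the Euclidean distance of centred log2(TPM + 1) over 3 libraries, and was 0.0214, 0.0237 and 0.0336. Atf3, a transcription factor of the stress response, had 498, 157 and 233 TPM. Arl5a, a small GTPase of the Golgi, had 27.0, 8.20 and 12.9 TPM, and Gm13710 had 43.3, 13.2 and 19.9 TPM. By the same distance Ccl3 ranked 263 and Ccl9 768, while Ccl7, Ccl2, Ccl12 and Ccl6 ranked 3061, 3228, 6398 and 6764. With only 3 libraries many genes share such a profile.

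Receptors of these ligands were measured in the same libraries. Of 15 CC chemokine and atypical receptor genes, 9 averaged 1 TPM or more, with a list median of 1.13 TPM. Ccrl2, an atypical receptor that binds chemerin, was highest at 187, 83.0 and 130 TPM, a mean of 133 ± 52.0 TPM (SD, n = 3). Ccr1, the receptor of Ccl6 and Ccl9, had 26.8, 14.2 and 10.7 TPM and was highest in replicate 1. Ccr2, the receptor of Ccl2, Ccl7 and Ccl12, was low at 2.05, 0.374 and 0.881 TPM. Ccr9, Ackr4, Ccr3 and Ccr10 had means of 4.85, 4.02, 3.00 and 2.80 TPM. Of these, Ccr9, Ackr4 and Ccr10 overlap genes on the opposite strand, so their values are uncertain. None of the 9 receptors tested was called for RNA amount in either direction. An unadjusted p under 0.05 in edgeR was reached by 4 of the 9, and by 3236 of all 15077 genes tested. DESeq2 and edgeR on kallisto-type counts called none of the receptors for which they gave an adjusted p.

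Of 13 other CC chemokine genes, 8 had no count in any library, among them Ccl17, Ccl19 and Ccl20. The list's median was 0 TPM over the 12 genes of at least 300 nt. Ccl25, known as a chemokine of thymus and gut, stood at 57.9, 32.1 and 35.6 TPM, a mean of 41.8 ± 14.0 TPM (SD, n = 3). It overlaps Elavl1 on the opposite strand by 204 nt, so its value is uncertain. Ccl27a was next at 1.52 ± 0.351 TPM (SD, n = 3) and no other reached 1 TPM. Ccl25 was the only gene of the list tested for RNA amount and was not called, with a slope of 0.24 ± 0.14 (SE; edgeR adjusted p = 0.345; unadjusted 0.108).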

How the data were processed

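The authors deposited, for every library, RSEM-style gene and transcript tables, whose expected counts and TPM are named so per the file headers. A kallisto-style transcript table, likewise deposited by the authors, gives estimated counts and TPM. Deposited TPM cover all entries of a table, tRNA and spike-ins included. Readme files, read only for this, name assembly mm10 and annotation M21. The aligner, program versions, read filters and use of strand are not given in the sources.

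Gene names, coordinates and transcript types came from GENCODE M21. TPM were recomputed from expected counts and deposited effective lengths over the 46615 genes averaging 300 nt or more. Values are mean ± SD over 3 libraries, and log2 values use a pseudocount of 1. RNA amount was tested with edgeR 4.0.16 (R 4.3.3, TMM factors, filterByExpr, quasi-likelihood test) on expected counts rounded to whole numbers, with log2 of the amount as covariate and Benjamini-Hochberg adjustment over all genes tested. The fit was tested on simulated data. DESeq2 1.42.0 was an alternative. Tables and plots were made in Python 3.11.15 with pandas 2.3.3, numpy 2.4.6 and matplotlib 3.10.9. Posterior SDs are the authors' own, per the file headers.

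The members and lists were chosen with earlier results of these data known. Named were all 10 members, the 8 highest of the related chemokine and receptor genes (1 of which is not reported here), the 4 highest genes in or beside the clusters, and the 3 genes nearest to Ccl4 in profile. Ccr2, Ccl27a, Ccl17, Ccl19, Ccl20, Gm17268, Elavl1, the marker genes named, the promoter motifs and the pairs set in ratio were chosen after values were seen.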

Additional observations from a re-analysis of the deposited data

How the results depend on the processing

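The number of CC chemokine genes with a mean of at least 1 TPM was 8 under the deposited TPM, the kallisto-type table, genes of any length and without each replicate (8 to 8), while 6, 8 and 6 genes reached 10 TPM under the first 3 and 6 to 7 without a replicate, an alternative chosen after seeing the data. The levels themselves moved: Ccl4, Ccl2 and Ccl6 averaged 58.5, 29.5 and 20.1 on the deposited TPM and 58.6, 29.6 and 20.1 TPM with genes of any length, since short entries then share the total. By the kallisto-type table Ccl5 averaged 13.2 TPM. Members called for RNA amount numbered 4 with RLE factors and without the ribosomal DNA locus genes, 3 with DESeq2, 2 on kallisto-type counts and 5 with no count filter, where Ccl5 was added (edgeR adjusted p = 0.0182). Over all genes 661 were called, against 698 with RLE factors and 691 without the ribosomal DNA locus genes. DESeq2 called 362, edgeR on kallisto-type counts 487 and edgeR with no count filter 1181. The added call of Ccl5 thus came with more calls over all genes, and the cause was not tested. Without a replicate, 2 libraries leave no residual degrees of freedom, so no genes could be called; slopes without a replicate ran from -0.75 to 1.42 for Ccl2, from -0.86 to 0.63 for Ccl6 and from -0.49 to 0.79 for Ccl7, none of them called.

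Shares on transcripts not annotated as protein coding depended on the table. For Ccl2, Ccl6 and Ccl9 they were 69.5%, 57.4% and 28.2% by kallisto-type counts, and 73.0%, 66.4% and 1.83% as shares of TPM. Leaving out each replicate gave 79.2% to 81.4%, 33.1% to 41.8% and 0.0519% to 0.166%. By CPM without gene length the first 4 genes were Ccl9, Ccl4, Ccl2 and Ccl3. No paired analysis was possible because the libraries form 1 group. Counts under 100, as for Ccl5, Ccl8, Ccl12 and Ccl22, limit what these depths can show.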

Other observations

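Ccl25 and the gene it overlaps on the opposite strand, Elavl1, which encodes an RNA-binding protein, had counts of similar size. Ccl25 had 662, 569 and 607 counts in replicates 1, 2 and 3, and Elavl1 had 660, 621 and 575. In replicates 1 and 2 the counts were fractional before rounding, at 661.86 and 569.49 for Ccl25 and 660.14 and 620.51 for Elavl1. Some reads were thus divided between genes. In both libraries the fractions of Ccl25 and Elavl1 add up to a whole count, as for reads divided between these genes. Single reads were not examined. The overlap is 204 nt long. The levels were 57.9, 32.1 and 35.6 TPM for Ccl25 and 32.96, 24.0 and 16.8 TPM for Elavl1. Ccr9, a receptor known for Ccl25, had 212, 135 and 161 counts. It lies over Lztfl1, on the opposite strand, for 23282 nt, and Lztfl1 had 313, 236 and 294 counts. The part of the overlaps in these values was not tested.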
